A study of Mus musculus with 40 samples.

Results

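Heat shock proteins and chaperones keep other proteins folded, and 10 of their genes were followed through a series of closed head injuries (CHI): Hspa1a, Hspa1b, Hspa5, Hspa8, Hsph1, Dnajb1, Hspb1, Hsp90aa1, Hsp90ab1 and Bag3. The genes were chosen by name from the 55539 features of the count table, and each name matched a single feature. All 10 passed the filter on low counts, which kept 15224 features. RNA had been sequenced from the somatomotor cortex on the left side. The mice were 3xTg-AD females on a C57BL/6J background, aged 2 to 4 months. 3xTg-AD mice are a model of Alzheimer's disease that carries human amyloid precursor protein and tau transgenes driven by a neuronal promoter together with an altered presenilin 1 gene, and every mouse here was of this genotype, so no wild-type animal was compared. An injury was a weight dropped on the intact skull under isoflurane, given once daily. The sham-injured mice received anesthesia without injury, and shams with different numbers of exposures form one group of 4. Tissue was taken at 3 times after the last injury, which were 30 min, 4 h or 24 h. The numbers of mice at these times were 3, 3 and 4 after 1xCHI, 3, 2 and 4 after 3xCHI, and 3, 3 and 4 after 5xCHI. A further 3 mice each were taken 24 h after 2xCHI and 4xCHI, which serve as the groups before the next injury. Sample 30, from 3xCHI at 4 h, was left out because its animal had been removed as an outlier on its protein measurements. Each sample is named below by its number in the study.

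None of the 10 genes passed the test in any of the 21 comparisons made between times or between numbers of injuries. The same test called at most 22 of all 15224 genes (0.145%) in any of them. The lowest p for a difference between times belonged to Dnajb1, which at 30 min was above 4 h in every pair of samples with the same number of injuries, by 20.3% on average. The most variable gene was Hspb1, whose highest sample exceeded its lowest 12.9-fold, and the steadiest was Hsp90ab1, whose highest sample exceeded its lowest 1.25-fold.

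The HSP70 chaperones bind exposed stretches of unfolded proteins and release them in a cycle driven by ATP. J-domain proteins such as Dnajb1 start that cycle, and nucleotide exchange factors such as Hsph1 and Bag3 end it. The HSP90 proteins act later on clients such as kinases and steroid receptors, and the small heat shock protein Hspb1 holds unfolded proteins without using ATP. In the brain, neurons carry much of the constitutive Hspa8 and HSP90, whereas heat shock and injury can induce Hspa1a, Hspa1b and Hspb1 through heat shock factor 1, which binds alternating GAA and TTC triplets near the start of its targets. Hspa5, also known as BiP, is the HSP70 of the endoplasmic reticulum and is induced by unfolded proteins there.

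The bases before the start sites of Hspa1a, Hspa1b and Hspb1 show both how alike the first pair is and where triplets of the heat shock type lie. The sequences are those of RefSeq on GRCm38.p6, read 5′ to 3′ on the strand of the gene and ending at the base before the start. Hspa1a occupies chr17:34972157-34972406 on the minus strand, Hspa1b chr17:34959239-34959488 on the minus strand and Hspb1 chr5:135887669-135887918 on the plus strand. Capitals mark the letters GAANNTTC, in which N is any base.
Hspa1a: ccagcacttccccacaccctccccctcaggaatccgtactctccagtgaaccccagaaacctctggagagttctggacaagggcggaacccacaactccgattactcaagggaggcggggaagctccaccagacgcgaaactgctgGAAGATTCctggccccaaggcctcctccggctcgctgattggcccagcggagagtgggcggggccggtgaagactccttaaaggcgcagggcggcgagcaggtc
Hspa1b: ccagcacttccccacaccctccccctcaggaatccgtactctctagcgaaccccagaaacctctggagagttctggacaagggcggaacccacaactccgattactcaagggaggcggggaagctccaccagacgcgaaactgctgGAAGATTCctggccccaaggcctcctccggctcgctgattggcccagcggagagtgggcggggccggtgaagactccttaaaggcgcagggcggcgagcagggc
Hspb1: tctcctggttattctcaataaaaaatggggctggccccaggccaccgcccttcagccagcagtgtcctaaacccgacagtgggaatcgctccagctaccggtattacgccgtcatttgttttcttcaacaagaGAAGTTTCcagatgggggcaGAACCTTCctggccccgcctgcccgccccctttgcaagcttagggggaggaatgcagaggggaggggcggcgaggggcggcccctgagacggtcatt

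The Hspa1a and Hspa1b windows were identical at 247 of 250 bases, and both carried 1 match, whereas Hspb1 carried 2. GAANNTTC stood in 6.69% of the 32851 windows of the same length in RefSeq. The opposite order of the triplets, TTCNNGAA, was found before Hsph1 and in 7.17% of windows. Both patterns read the same on either strand. A run of 3 triplets, in which the first pattern is followed by any 2 bases and GAA and which therefore holds both shorter ones, was in 0.466% of windows and in none of the 7 of these genes that had a window. The endoplasmic reticulum stress element, which is CCAAT, any 9 bases and CCACG, searched on both strands, was found before Hspa5 as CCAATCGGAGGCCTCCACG, from 65 to 47 bases before the RefSeq start, and in 0.113% of windows. The matches before the RefSeq starts of Hsph1 and Hspa5 lie inside the genes as GENCODE M21 draws them, whose starts are further upstream. A match describes letters and was not tested as a binding site. Hspa8, Hsp90aa1 and Hsp90ab1 had no window in the table.

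The level of each gene was taken as CPM, its count scaled to the total of the sample. Genes were ranked by CPM per kb of exon in the GENCODE M21 annotation of GRCm38, with the exons of all transcripts of a gene merged. Per kb, Hsp90ab1, the constitutive cytosolic HSP90, was highest at 479 ± 23.4 (SD, n = 39), followed by Hspa8, the constitutive HSP70, at 394 ± 35.5 and Hsp90aa1, the inducible HSP90, at 310 ± 23.8. Hspa5 at 62.1 ± 8.20, Hsph1 at 39.7 ± 4.81 and Dnajb1 at 16.1 ± 1.92 formed the middle of the order. Hspb1 at 6.40 ± 5.49, Hspa1a at 6.06 ± 1.08, Hspa1b at 5.60 ± 1.18 and Bag3 at 3.87 ± 0.850 were lowest. The neighbours Hspb1, Hspa1a and Hspa1b did not differ beyond their spread over samples, and the steps among Hsp90ab1, Hspa8 and Hsp90aa1 were larger than the SD of either neighbour. The merged exons measured 2999 bases for Hsp90ab1 and 4301 bases for Hspa8. Before division by length Hspa8 was the higher, at 1694 against 1435 CPM. The order of Hsp90ab1 and Hspa8 therefore rests on the length used, which the SD over samples does not cover.

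**Figure D1:**
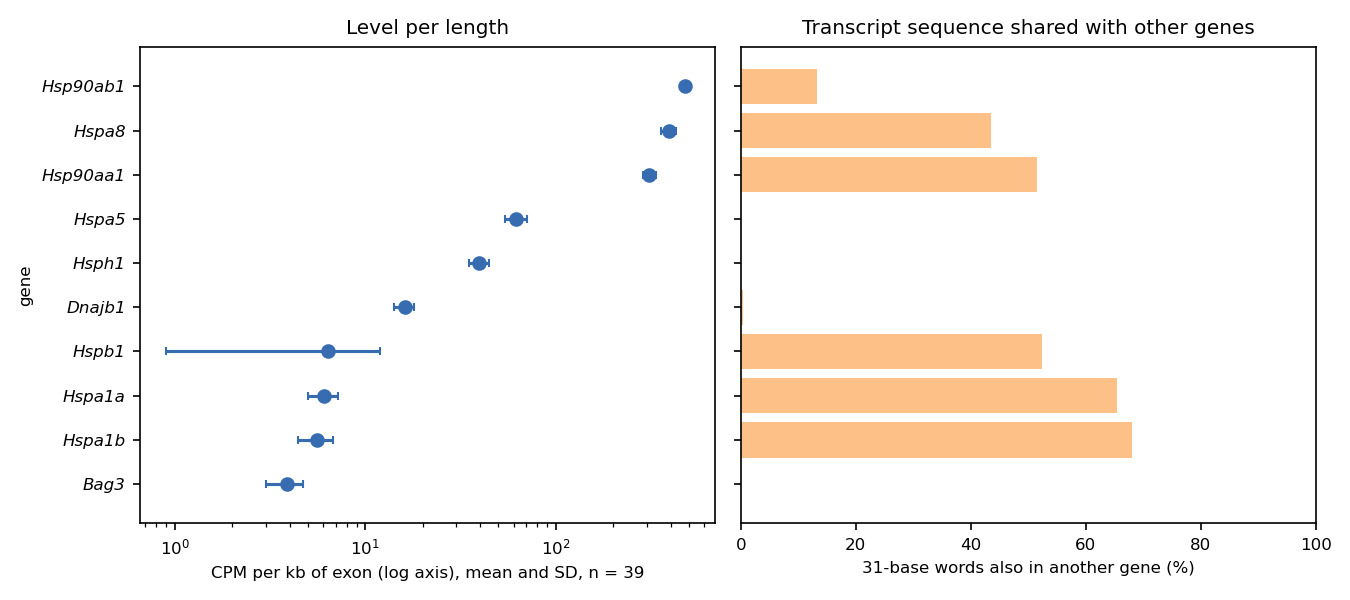
Left, mean level of each gene over 39 samples in CPM per kb of exon on a log axis, with bars of 1 SD. Right, percent of the 31-base words of each gene's transcripts that also occur in another gene. The constitutive genes Hsp90ab1 and Hspa8 lie at 479 and 394 CPM per kb, Bag3 at 3.87, and Hspa1a and Hspa1b share most of their words with other genes.

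How far a gene's counts can be separated from those of its copies differed within the group. Of the 31-base words in the transcripts, 65.4% for Hspa1a and 68.0% for Hspa1b also occurred in another gene, in both cases mainly in the other one of the pair. Their single-exon coding sequences were identical at 1918 bases, 99.4% of the longer one. Words were also shared by Hspb1 (52.3%, with Hsp25-ps1), Hsp90aa1 (51.4%, mainly with Gm12346 and Gm5844), Hspa8 (43.5%, mainly with Gm15459 and Gm8355) and Hsp90ab1 (13.2%). For Hspa5 and Dnajb1 the share was 0.0234% and 0.412%, and for Hsph1 and Bag3 it was 0. The split of reads between Hspa1a and Hspa1b is therefore uncertain, and their sum is given beside them.

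The total count of a sample lay between 15926014 and 27859547, with a median of 19028778, and the lowest count of any of the 10 genes was 52.9, for Hspb1. Neuronal, cortical, astrocytic, microglial and oligodendrocyte markers were present in every sample, while striatal markers summed to between 63.6 and 481 CPM and choroid plexus markers to between 4.23 and 2446 CPM, so the dissections were not equal. Samples 10 (5xCHI at 4 h) and 11 (5xCHI at 24 h) stood apart, with 1671 and 2490 CPM of the astrocyte gene Gfap against at most 560 in the others. Neuronal markers summed to 6373 and 5675 CPM there, below the 6868 to 9067 CPM of the other 37 samples. In bulk tissue, fewer cells of a type and less RNA per cell cannot be told apart. Some fold changes of the 10 genes that rest on these samples are also given without them. So are the counts of members by edgeR that involve 5xCHI, except those with a term for samples 1 to 18 against 19 to 40. The other fold changes include samples 10 and 11, such as Hspa1a between times and Dnajb1, Hspb1 and Hsph1 at 4 h after 5xCHI. Those with that term include them too, as do the DESeq2 counts and the summed pair of Hspa1a and Hspa1b. The genes without overlap and the counts of the other chaperone lists also include them. Nothing in the labels pairs the samples of different groups, and each is taken as a separate mouse.

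**Figure D2:**
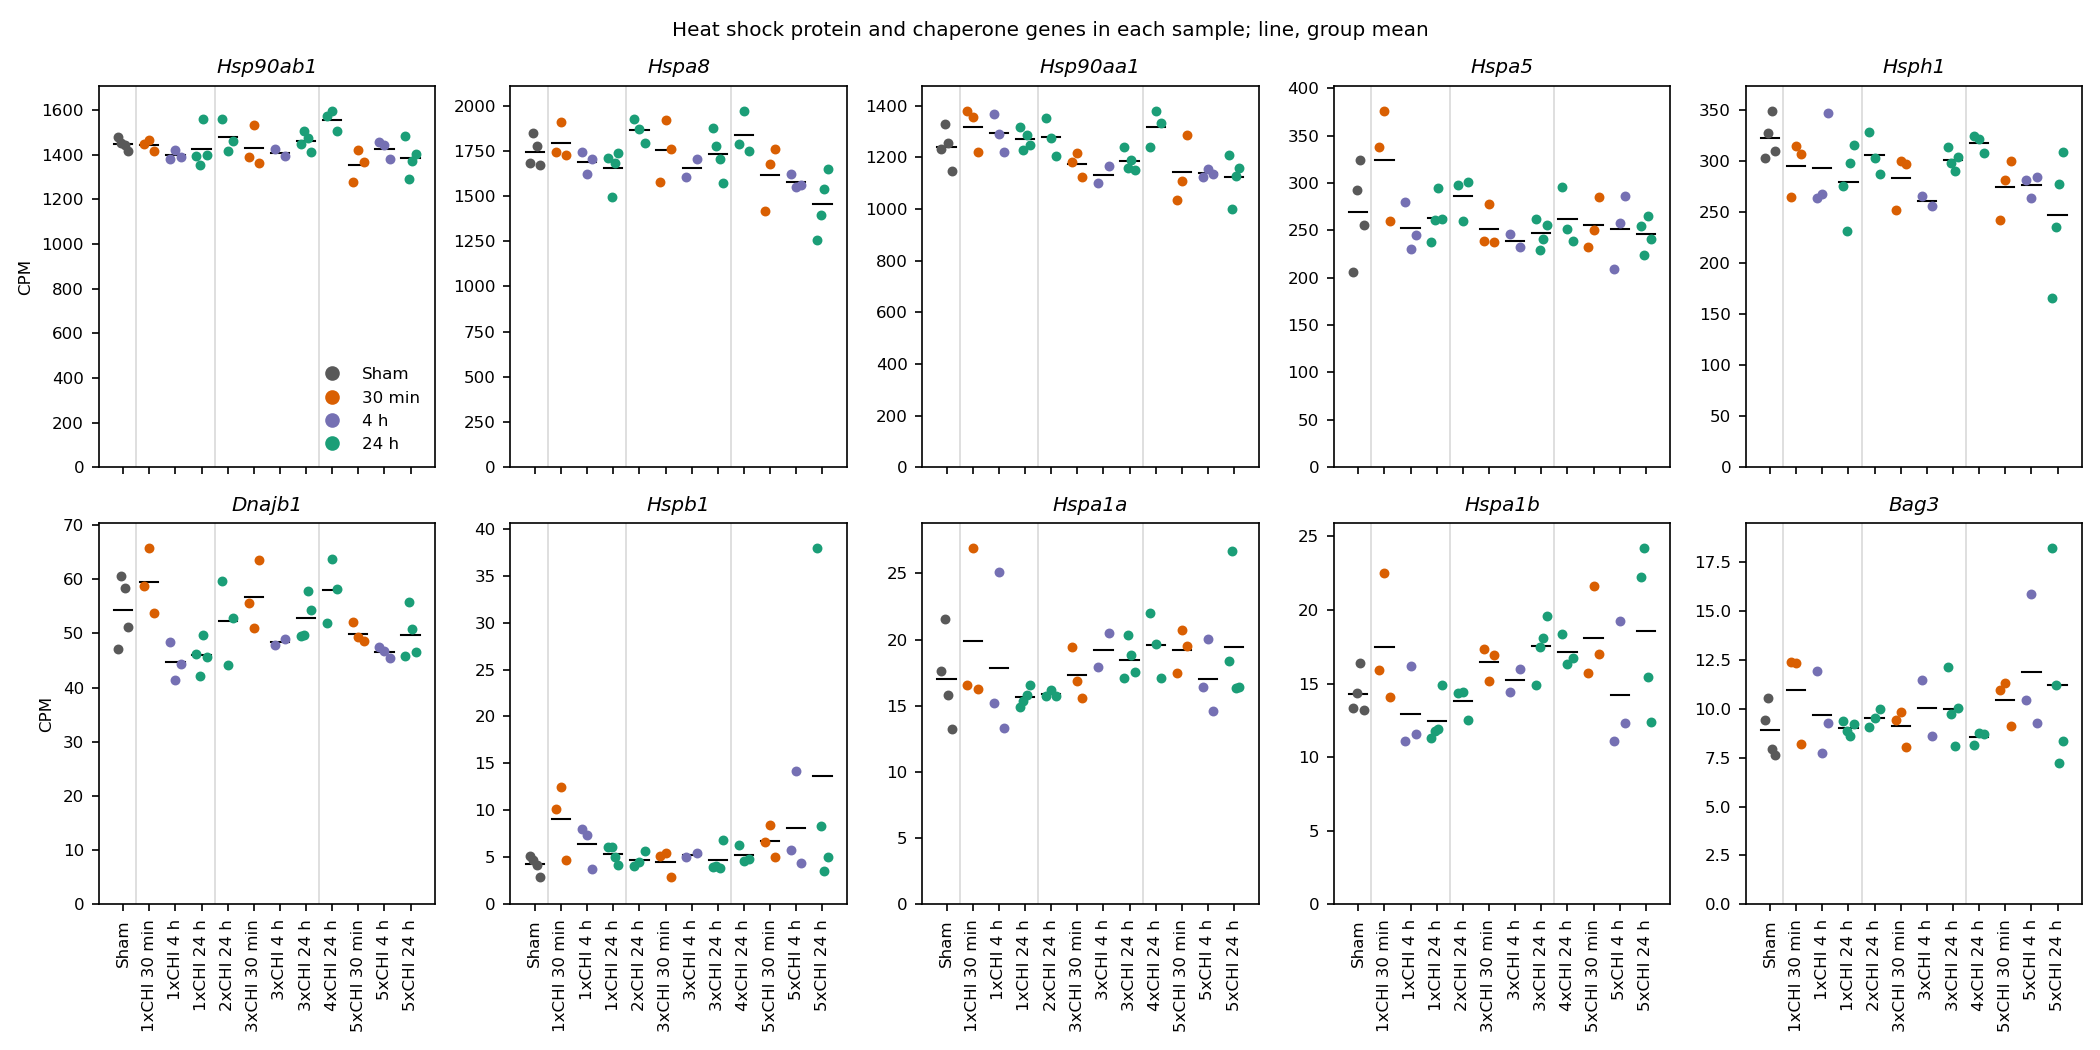
CPM of each of the 10 genes in the 39 samples (points), by group from sham to 5xCHI, each axis from 0, with the group mean as a line and colors for the time after the last injury. Hsp90ab1 stays between 1278 and 1596 CPM, Hspb1 reaches 37.9 CPM in a single sample after 5xCHI, and Dnajb1 at 30 min lies above 4 h for each number of injuries.

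To ask whether the genes followed the time after an injury, the samples of the 3 times after 1xCHI, 3xCHI and 5xCHI were compared with the number of injuries averaged out. These comparisons share samples with each other. At 30 min against 24 h, none of the 10 genes was called at an adjusted p under 0.05 by edgeR's quasi-likelihood test, and 0.145% of all genes were. At an unadjusted p under 0.05, 2 of the 10 passed, against 10.5% of all genes. At 4 h against 24 h, none passed either threshold, against 0.00657% and 3.44% of all genes. At 30 min against 4 h, none was called and 2 passed the unadjusted threshold, against 0.00657% and 4.51%. DESeq2 called none of the 10 in any of the 3 comparisons, with 2, 0 and 3 under the unadjusted threshold, against 11.2%, 3.66% and 4.82% of all genes by DESeq2, which called 52, 1 and 24 of them. The median log2 fold change of the 10 genes was 0.08 at 30 min against 24 h, where that of all genes was -0.01. Of the 10, 9 had a positive value, the lowest of them Hsp90ab1 at 0.002, and the share of all genes with one was not counted. The median of the 10 was -0.01 at 4 h against 24 h and 0.07 at 30 min against 4 h, where those of all genes were 0.00 and -0.01. Without samples 10 and 11 the members under the unadjusted threshold numbered 1, 1 and 2 at 30 min against 24 h, 4 h against 24 h and 30 min against 4 h, against 15.9%, 4.14% and 4.75% of all genes, and none was called.

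**Figure D3:**
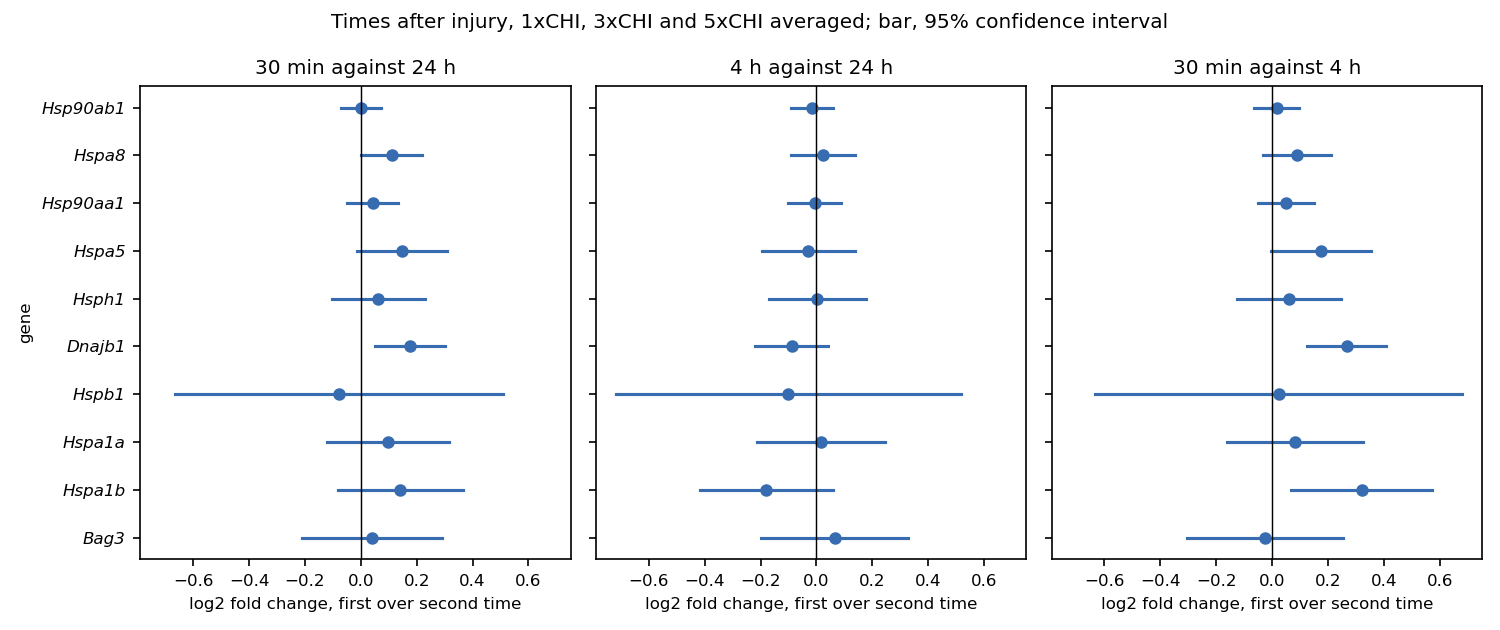
Fitted log2 fold change of each gene (point) with its 95% confidence interval (bar) for 30 min against 24 h, 4 h against 24 h and 30 min against 4 h, averaged over 1xCHI, 3xCHI and 5xCHI. The intervals of Dnajb1 lie above 0 in the panels for 30 min, with values of 0.18 and 0.27, and none of the 10 genes is called after adjustment.

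Dnajb1, the J-domain partner of cytosolic HSP70 and itself a heat shock gene, had the clearest time course. After 1xCHI its values were 58.7, 65.7 and 53.8 CPM at 30 min, then 48.4, 41.3 and 44.4 CPM at 4 h. After 3xCHI they were 55.6, 50.9 and 63.6 CPM at 30 min, then 47.8 and 49.0 CPM at 4 h. After 5xCHI they were 52.0, 49.3 and 48.6 CPM at 30 min, then 47.5, 46.7 and 45.5 CPM at 4 h. The times did not overlap at any number of injuries, and the step was widest after 1xCHI and narrowest after 5xCHI. Of all 15224 genes, 6 (0.0394%) were likewise higher at 30 min than at 4 h without overlap at each number: Dnajb1, the immediate early genes Egr1 and Egr4, the kinase gene Sik1, Tmem44 and Plekhh2. This count was made after the Dnajb1 values had been seen.

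The 12 samples at 24 h ran from 42.1 to 57.8 CPM (median 49.6) for Dnajb1 and overlapped with both other times. The sham-injured samples had 47.2, 60.5, 58.4 and 51.2 CPM, within the range of the injured samples. The log2 fold change was 0.27 ± 0.07 (SE) at 30 min against 4 h, with an adjusted p of 0.278, and 0.18 ± 0.06 at 30 min against 24 h, with an adjusted p of 0.418. Without samples 10 and 11 these values for Dnajb1 were 0.26 and 0.16. Against sham-injured mice, Dnajb1 after 1xCHI had log2 fold changes of 0.18 ± 0.11, -0.28 ± 0.11 and -0.25 ± 0.10 at the 3 times in order, so the step from 30 min to 4 h ran from above to below the sham mean. Against 4xCHI, its values after 5xCHI were -0.19 ± 0.11, -0.31 ± 0.11 and -0.21 ± 0.11, below that group at each time. None of these was called. Permuting the time labels within each number of injuries gave exact two-sided p-values of 0.00125 and 0.0191 for this gene alone, which are unadjusted and stem from 30 such tests. Whether the time course of Dnajb1 differed between 1xCHI, 3xCHI and 5xCHI was tested by an interaction, which it did not pass (adjusted p = 1), as did none of the 10 genes, against 2.63% of all genes at an unadjusted p under 0.05. By edgeR 0 of all genes were called in this test and by DESeq2 6, none of them among the 10, of which DESeq2 had 0 under the unadjusted threshold, against 3.34% of all genes.

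Hspa1a and Hspa1b, the inducible HSP70 pair, stayed low at every time. The lowest, median and highest values of Hspa1b were 14.1, 16.9 and 22.5 CPM at 30 min, 11.1, 13.4 and 19.3 CPM at 4 h, and 11.3, 15.2 and 24.2 CPM at 24 h. The 30 min samples overlapped with both other times. Hspa1b had a log2 fold change of 0.32 ± 0.12 (SE) at 30 min against 4 h (adjusted p = 0.981, exact permutation p = 0.0330, unadjusted), and 0.41 without samples 10 and 11. For Hspa1a it was 0.08 ± 0.12 (adjusted p = 0.987), and for the summed counts of the pair 0.19 (adjusted p = 0.988). Within 1xCHI, the highest Hspa1a values were 26.9 CPM in sample 14 at 30 min and 25.1 CPM in sample 16 at 4 h, while the other 8 samples lay between 13.3 and 16.6 CPM.

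At 24 h, Hspa1b had the steepest slope among the HSP70 genes over 0 to 5 injuries. It measured 13.4, 14.3, 16.4 and 13.2 CPM in sham-injured mice and 11.3, 11.8, 11.9 and 14.9 CPM after 1xCHI. After 2xCHI it measured 14.4, 14.4 and 12.5 CPM. After 3xCHI and 4xCHI the values were 14.9, 17.5, 18.1 and 19.6 CPM, then 18.4, 16.4 and 16.7 CPM, a range that overlapped with that of sham-injured mice. After 5xCHI they spread from 12.4 to 24.2 CPM. The slope was 0.10 ± 0.03 (SE) on the log2 scale per injury, with an adjusted p of 0.760. For the summed counts of Hspa1a and Hspa1b it was 0.08 (adjusted p = 0.750), and for Hspb1 it was 0.23 ± 0.08 (adjusted p = 0.760). Of the 10 genes, 2 had an unadjusted p under 0.05 for this slope, against 5.78% of all genes, and by edgeR 0 of all genes were called. DESeq2 called 1 of all genes and none of the 10, of which 3 were under the unadjusted threshold, against 6.13% of all genes by DESeq2. Without samples 10 and 11 the slope of Hspb1 was 0.05 and that of Hspa1b 0.09, and 1 of the 10 genes was under the unadjusted threshold, against 2.86% of all genes. With the term for samples 1 to 18 against 19 to 40, 4 were, against 7.28%: Hspa1b, Hspa8, Hsph1 and Hspb1. Summed striatal markers averaged 184, 227, 163, 85.5, 114 and 130 CPM at 24 h from sham to 5xCHI. Their correlation with Hspa1b over the 39 samples was -0.50, or -0.45 without samples 10 and 11, and their part in the slope was not tested.

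Hspa5, the HSP70 of the endoplasmic reticulum, was highest at 30 min after the first injury. It measured 338, 376 and 260 CPM there, against 206, 293, 325 and 255 CPM in sham-injured mice. Sample 14 was the highest of all 39 samples and sample 27 lay within the sham range, so the groups overlapped. The log2 fold change was 0.32 ± 0.14 (SE), with an adjusted p of 0.206. At 4 h and 24 h after 1xCHI, Hspa5 lay between 230 and 280 CPM and between 238 and 294 CPM. At 30 min after 3xCHI and 5xCHI it lay between 238 and 278 CPM and between 232 and 285 CPM, so the values did not reach those of samples 13 and 14.

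Hspb1, the small heat shock protein known in human as HSP27, was also high in samples 13 and 14 after the first injury. Its values were 10.1, 12.5 and 4.69 CPM at 30 min after 1xCHI, against 5.19, 4.76, 4.14 and 2.94 CPM in sham-injured mice. Samples 13 and 14 exceeded every sham-injured sample and sample 27 did not. These samples were divided in the same way by neuronal and astrocytic markers. Astrocytic markers summed to 2769 and 3445 CPM in samples 13 and 14 and to 4247 CPM in sample 27, against 4003 to 4921 CPM in sham-injured mice. Neuronal markers summed to 7059 and 7224 CPM in samples 13 and 14 and to 8667 CPM in sample 27, against 8218 to 8578 CPM in sham-injured mice. Blood markers, chiefly globin genes, summed to 484, 483 and 84.9 CPM in samples 13, 14 and 27, against 170 to 270 CPM, and the part of these markers in the Hspb1 and Hspa5 levels was not tested. The log2 fold change was 1.16 ± 0.49 (SE), with an adjusted p of 0.210. Without sample 27, Hspb1 and Hspa5 were both called, with log2 fold changes of 1.47 (adjusted p = 0.0426) and 0.47 (adjusted p = 0.0212), and so were 3602 of 15244 genes, where none had been called with it. Those were 23.6% of the genes tested, against which 2 of 10 members is not a larger share. Samples 13 and 14 belong to the numbers 1 to 18 and sample 27 to 19 to 40, a division that the labels do not describe. Hspb1 ranged from 3.96 to 37.9 CPM in the 18 samples of the lower range and from 2.93 to 6.81 CPM in the 21 of the higher range. With this division as a term in the fit, the log2 fold change of Hspb1 at 30 min after 1xCHI was 0.67 and that of Hspa5 was 0.37 (adjusted p = 0.465 and 0.340). The part that the division plays was not tested further.

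After the fifth injury, Hspb1 was uneven. It measured 6.66, 8.49 and 5.07 CPM at 30 min, 5.78, 14.2 and 4.42 CPM at 4 h, and 37.9, 8.37, 3.53 and 4.99 CPM at 24 h, where 4xCHI had 6.32, 4.61 and 4.81 CPM. The 2 highest values were those of samples 10 and 11, the samples with the highest Gfap, and the other samples overlapped with 4xCHI. The log2 fold change at 24 h after 5xCHI against 4xCHI was 1.37 ± 0.51 (SE, adjusted p = 0.635), and without samples 10 and 11 it was 0.12 (adjusted p = 0.999). Bag3, an HSP70 co-chaperone that works with small heat shock proteins in selective autophagy, was also highest in these samples, at 15.9 CPM in sample 10 and 18.2 CPM in sample 11. In the other 37 samples it lay between 7.22 and 12.4 CPM. At 24 h after 5xCHI against 4xCHI, its log2 fold change was 0.40 ± 0.22 (SE, adjusted p = 0.788) with both samples and 0.09 without them.

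**Figure D4:**
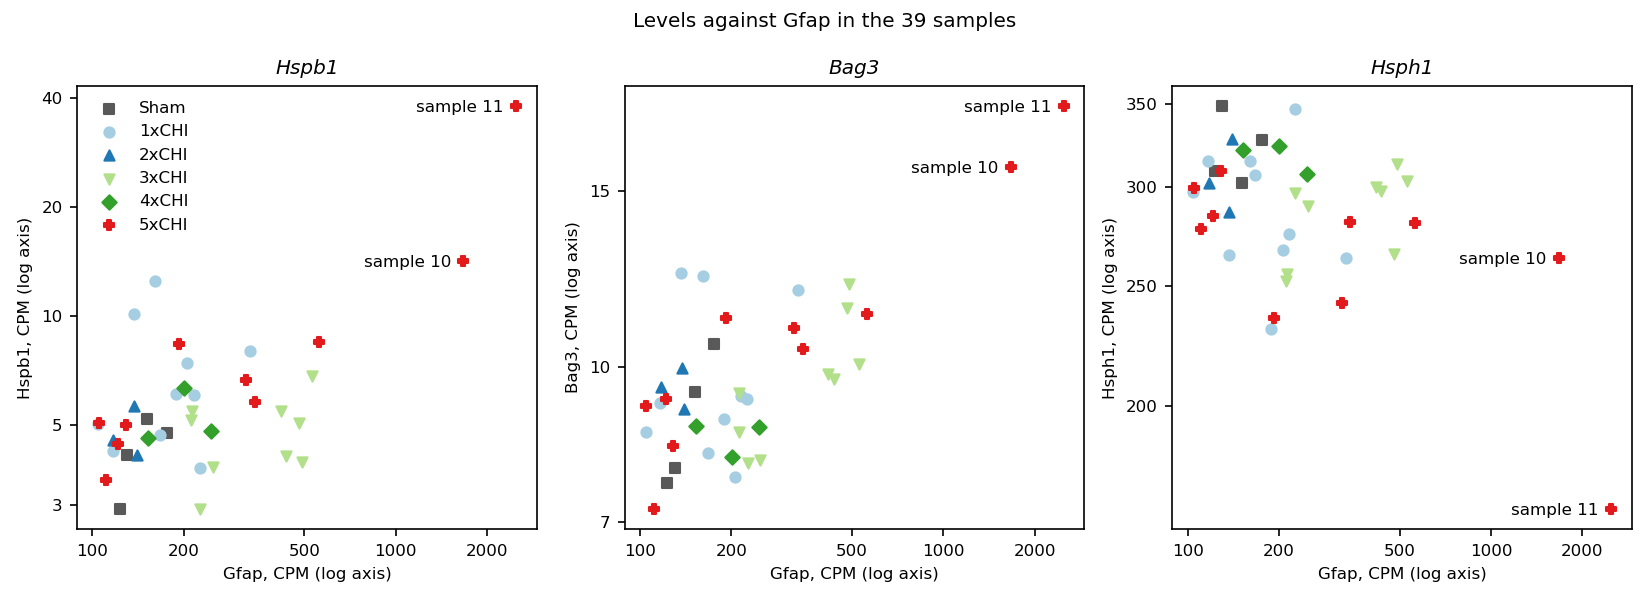
CPM of Hspb1, Bag3 and Hsph1 (vertical, log axis) against CPM of Gfap (horizontal, log axis) in each of the 39 samples, with symbols for the number of injuries. Samples 10 and 11, with 1671 and 2490 CPM of Gfap, hold the 2 highest values of Hspb1 and Bag3, and sample 11 holds the lowest of Hsph1.

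Over the 39 samples, log2 CPM of Hspb1 and Bag3 had a Pearson correlation of 0.80, or 0.62 without samples 10 and 11, and those of Hspb1 and the summed neuronal markers one of -0.86. Without samples 10 and 11 the correlation of Hspb1 with the neuronal markers was -0.70 and with Gfap 0.20, where it had been 0.62 with them. Bag3 and Gfap had a correlation of 0.73 with these samples and 0.46 without them. Gfap is only a part of the summed astrocytic markers. With that sum Hspb1 had a correlation of 0.28, or -0.43 without samples 10 and 11, and Bag3 one of 0.42, or -0.09 without them. Bag3 and the summed neuronal markers had a correlation of -0.73, or -0.47 without these samples. The points are 39 bulk samples that differ in depth and cell makeup, and these correlations are descriptions with no test.

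Hsph1, the HSP110 that recycles HSP70, had a correlation of -0.70 with Hspb1 and of 0.80 with Hspa8 over 39 samples, or of -0.42 and 0.70 without samples 10 and 11. Its correlation with the summed neuronal markers was 0.74, and 0.57 without those samples. At 24 h after 5xCHI it measured 165, 235, 278 and 309 CPM, against 324, 321 and 307 CPM after 4xCHI. Sample 11 was the lowest of all 39 samples, and sample 34 lay within the 4xCHI range. The log2 fold change was -0.35 ± 0.14 (SE, adjusted p = 0.672), and -0.19 without samples 10 and 11.

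Hspa8, the constitutive HSP70 that also uncoats clathrin-coated vesicles, was lower at 24 h after the fifth injury. It measured 1256, 1394, 1537 and 1648 CPM there, against 1789, 1971 and 1748 CPM after 4xCHI and 1684, 1851, 1776 and 1674 CPM in sham-injured mice. All 4 samples lay below every sample of the other 2 groups. Of all genes, 3.04% were lower than 4xCHI without overlap, and separation from sham-injured mice was not counted over all genes. The log2 fold change against 4xCHI was -0.32 ± 0.09 (SE), with an adjusted p of 0.635, and without samples 10 and 11 it was -0.24 (adjusted p = 0.931).

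The HSP90 pair moved little. Hsp90aa1 measured 1208, 998, 1127 and 1157 CPM at 24 h after 5xCHI against 1241, 1379 and 1330 CPM after 4xCHI. Hsp90ab1 measured 1484, 1290, 1373 and 1402 CPM against 1572, 1596 and 1505 CPM. In both genes the 5xCHI samples lay below the 4xCHI samples without overlap, as they did in 3.04% of all genes. The log2 fold changes were -0.22 ± 0.08 for Hsp90aa1 and -0.16 ± 0.06 for Hsp90ab1 (SE, adjusted p = 0.635 and 0.648), or -0.24 and -0.18 without samples 10 and 11. Sham-injured mice had 1146 to 1327 CPM of Hsp90aa1 and 1419 to 1477 CPM of Hsp90ab1, ranges that the 5xCHI samples overlapped.

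Each injury was also set against the group just before it, with the 3 times of an injury sharing that group. After the first injury none of the 10 genes was separated from sham-injured mice without overlap in either direction, where 2.57%, 2.57% and 2.15% of all genes were higher at the 3 times in order and 6.18%, 2.86% and 2.78% lower. Of the 10 genes, 2, 1 and 1 had an unadjusted p under 0.05 at these times, against 19.7%, 10.5% and 6.02% of all genes. After the third injury 0 had at each time, against 1.88%, 2.00% and 4.57%. Hspa1b was higher than 2xCHI without overlap at 30 min (6.52% of all genes), and Hspa1a and Hspa1b at 4 h (11.7%) and at 24 h (4.39%). Hspa5, Hspa8, Hsph1 and Hsp90aa1 were lower without overlap at 4 h (9.2% of all genes), a group of 2 samples, and none was lower at 30 min (3.17%) or at 24 h (3.11%). Both 3xCHI samples at 4 h have numbers from 1 to 18 and all 2xCHI samples have numbers from 19 to 40, so the groups and the division cannot be told apart within this comparison. With the division as a term estimated over all groups, the log2 fold changes of Hspa5, Hspa8, Hsph1 and Hsp90aa1 at 4 h were -0.18, -0.10, -0.01 and -0.17, where they had been -0.27, -0.18, -0.24 and -0.18.

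**Figure D5:**
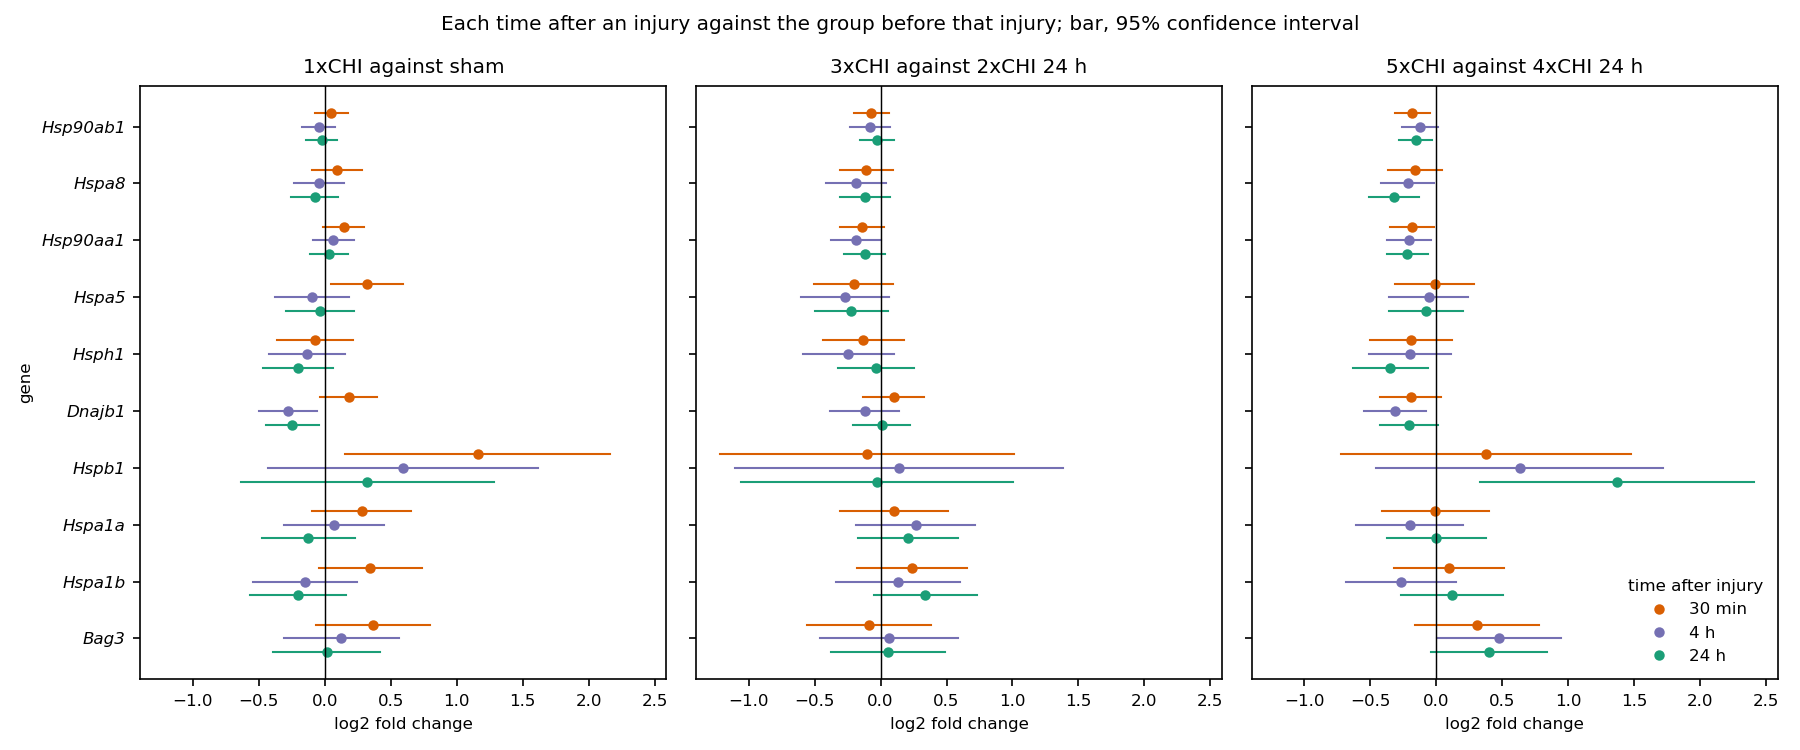
Fitted log2 fold change (point) with its 95% confidence interval (bar) of each gene at each of the 3 times after 1xCHI against sham, after 3xCHI against 2xCHI and after 5xCHI against 4xCHI. Hspb1 has the widest intervals, with 1.16 at 30 min after 1xCHI and 1.37 at 24 h after 5xCHI, and Hspa8, Hsp90aa1 and Hsp90ab1 lie below 0 at all 3 times after 5xCHI.

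After the fifth injury 2, 4 and 5 of the 10 genes had an unadjusted p under 0.05 at the 3 times in order, against 6.36%, 5.33% and 6.44% of all genes. The counts without samples 10 and 11 were 2, 3 and 3, against 8.12%, 3.21% and 5.26%. All samples of 4xCHI have numbers from 19 to 40, whereas 6 of the 10 samples of 5xCHI have numbers from 1 to 18. Hsph1 averaged 265 CPM in the lower range and 309 CPM in the higher, and Hspa8 averaged 1640 and 1741 CPM. With the division as a term the counts were 2, 2 and 4, against 5.07%, 4.05% and 4.96%. The log2 fold changes of Hsph1 were then -0.04, -0.04 and -0.25, where they had been -0.19, -0.20 and -0.35. Those of Hspb1 were -0.25, -0.06 and 0.67, where they had been 0.38, 0.63 and 1.37, and at 24 h those of Hspa8, Hsp90aa1 and Hsp90ab1 were -0.28, -0.21 and -0.15. The 0.63 of Hspb1 at 4 h rests on sample 10, at 14.2 CPM, where the other samples of that group had 5.78 and 4.42 CPM. Hspa8, Hsph1, Dnajb1, Hsp90aa1 and Hsp90ab1 were lower than 4xCHI without overlap at 4 h (6.48% of all genes), as were Hspa8, Hsp90aa1 and Hsp90ab1 at 24 h (3.04%) and Hsph1 and Hsp90ab1 at 30 min (11.8%). Bag3 was higher without overlap at 30 min (8.1%) and at 4 h (6.65%), and none of the 10 genes was higher at 24 h (1.81%). The 4xCHI samples are shared by these 3 comparisons, and they held the highest mean of Hsp90ab1 among the 12 groups, so the 3 counts are not separate observations. Over the 9 comparisons with the group before, edgeR and DESeq2 both called none of the 10 genes, and edgeR called 0 of all genes where DESeq2 called 0 to 28. DESeq2 had 3, 1 and 1 of the 10 under the unadjusted threshold after the first injury, against 20.7%, 10.9% and 6.30% of all genes by the same tool. It had 0, 1 and 0 after the third, against 2.04%, 2.05% and 4.95%, and 2, 5 and 5 after the fifth, against 6.67%, 5.68% and 6.88%.

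With the times of each number of injuries combined and compared with sham-injured mice, none of the 10 genes was called for any number, and edgeR called 0 of all genes where DESeq2 called 0 to 29. Of the 10 genes, 4 had an unadjusted p under 0.05 after 5xCHI, against 11.6% of all genes, and 0 had after 1xCHI, 2xCHI, 3xCHI and 4xCHI, against 17.2%, 4.45%, 3.86% and 1.7%. DESeq2 also had 4 of the 10 after 5xCHI, against 12.2% of all genes by that tool, and 0 after 1xCHI to 4xCHI, against 17.8%, 4.66%, 4.18% and 1.88%. The 4 genes were Hspb1 at 1.20 ± 0.42, Hsph1 at -0.29 ± 0.11, Hspa8 at -0.18 ± 0.07 and Hsp90aa1 at -0.13 ± 0.06 (log2 fold change and SE, adjusted p from 0.372 to 0.396). Without samples 10 and 11 they were 0.47, -0.22, -0.14 and -0.14, and 3 of the 10 genes were under the unadjusted threshold, against 6.63% of all genes. At 24 h, any difference between the numbers of injuries had an unadjusted p under 0.05 for 3 of the 10, Hspb1, Hspa8 and Hspa1b, against 4.58% of all genes, and none was called (adjusted p = 0.984 for each). By edgeR 0 of all genes were called in that test and by DESeq2 8. For any difference between times, none was called against 0.0328% of all genes, and 2, Dnajb1 and Hspa1b, passed the unadjusted threshold against 4.25%. DESeq2 had 4 and 2 of the 10 under the unadjusted threshold in these last 2 tests, against 6.00% and 5.55% of all genes, and called none of the 10, while it called 54 of all genes between times. With samples 10 and 11 left out, edgeR had 2 of the 10 in each of them, Hspa1b and Hsp90aa1 between numbers of injuries and Dnajb1 and Hspa1b between times, against 4.48% and 5.07% of all genes. The interaction between time and number had 0 of the 10 without these samples, against 3.53%.

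The other genes of the pathway were followed through lists written by function, and no listed gene was called in any comparison. Of 25 partners of cytosolic HSP70 and HSP110, 4 had an unadjusted p under 0.05 at 30 min against 24 h, 2 higher and 2 lower, and the lowest p belonged to the J-domain gene Dnajb5 (log2 fold change 0.35, adjusted p = 0.364). Of 14 HSP90 co-chaperones, 4 did, all higher, led by Ptges3, which stabilizes HSP90 bound to its clients (0.18, adjusted p = 0.455). Of 20 endoplasmic reticulum chaperones, 8 did, 7 higher and 1 lower, and the lowest p was that of the lower one, Dnajc10 (-0.24, adjusted p = 0.364). The background for these counts was 10.5% of all genes.

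Among the other lists at 30 min against 24 h, 0 of the 5 tested small heat shock proteins, 1 of the 4 tested heat shock factors, 0 of 10 mitochondrial chaperones and 1 of 14 subunits of TRiC and prefoldin had an unadjusted p under 0.05. Heat shock factor 1 itself, Hsf1, was the one, with a log2 fold change of 0.25 (adjusted p = 0.366), and for the chaperonin list it was Pfdn2 at 0.27 (adjusted p = 0.429). The lowest p among the small heat shock proteins and the mitochondrial chaperones belonged to Hspb11 at 0.13 and Clpb at -0.08, which did not pass. Hspb2, Hspb7, Cryaa, Hsf3 and Hsf5 did not pass the filter on low counts.

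At 4 h against 24 h, 1 HSP90 co-chaperone and 1 endoplasmic reticulum chaperone had an unadjusted p under 0.05 and 0 genes of the other lists did, against 3.44% of all genes. They were Fkbp5, an HSP90 co-chaperone that glucocorticoids induce, at 0.59, and Herpud1, a gene of endoplasmic reticulum-associated degradation, at -0.19 (adjusted p = 0.993 for both). The lowest p of the other lists belonged to Hspa12a, Hspb3, Hsf1, Clpb and Cct5, with log2 fold changes from -0.32 to 0.12.

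The genes whose log2 CPM most resembled that of a member over the 39 samples differed from member to member. Hspa5 was most like Pdia6, Pdia4 and Manf (Pearson r from 0.80 to 0.81), 3 other genes of the endoplasmic reticulum. Hspa8 was most like Dnaja1, Stip1 and Nrn1 (0.76 to 0.81), the first 2 being an HSP70 partner and the adaptor between HSP70 and HSP90. Hsp90aa1 was most like Cacybp, Tuba1a and Morf4l2 (0.81 to 0.85), and Dnajb1 most like Egr1, Midn and Trib1 (0.74 to 0.77).

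The values for Hspa8 were 0.65 to 0.78 without samples 10 and 11. Hspb1 was most like Sipa1, Pbxip1 and Mrps6 (0.84 to 0.85, and 0.59 to 0.71 without those samples), Bag3 like Acadvl, Tagln2 and Arpc1b (0.83 to 0.86, and 0.66 to 0.75) and Hsph1 like Cap2 and Cx3cl1 (0.86 to 0.88, and 0.75 to 0.80). Hsp90ab1 was most like Maged1, Psmd12 and Atp6ap2 (0.67 to 0.68), Hspa1a like Camkk1, Trip10 and Sept9 (0.62 to 0.64) and Hspa1b like Serinc2, Ecm1 and Ncs1 (0.62 to 0.64). Among the 45 pairs within the 10 genes, 7 had a correlation above 0.5 and 14 one below 0, so the group did not vary as a unit. These counts include samples 10 and 11. Hspa1a and Hspa1b, which share sequence, had a correlation of 0.73, and Hspa8 and Hsp90aa1 one of 0.62. Without samples 10 and 11 these correlations were 0.75 and 0.71.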

How the data were processed

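The deposited file held an expected count per gene for each sample, made for the authors by a sequencing company, neither normalized nor filtered. The column headers carry the suffix of salmon's gene-level output, the aligner and tool versions are not given in the sources used here, and the submitters' processing notes name mm10. Of the deposited values, 4.46% were not whole, and they were rounded here before each count test. A feature was dropped when over 4 of the 39 samples had under 10 counts of it. The study words its filter in this way, but the number of features left here is not the number it gives. Groups came from the labels. The test was edgeR 4.0.16 (R 4.3.3, TMM, quasi-likelihood) over all 12 groups, with Benjamini-Hochberg adjustment over the 15224 features tested, and a gene was called at an adjusted p under 0.05. DESeq2 1.42.0 was an alternative. The numbers of injuries with times combined were compared in a fit with 1 term per number. Single genes were also tested by exact permutation of time labels on log2 CPM (prior count 1) within each number of injuries. Levels are CPM of the unrounded counts over each sample's total. The count tests were tested on simulated data. Of the 46 within-group pairs of samples, each differed by more than sampling noise (lowest chi-square per gene 6.85).

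The members, the pathway and marker lists and the comparisons were chosen with earlier results of these data known. Besides the 10 members, the genes named were, for each list, any called gene and otherwise the one with the lowest p at 30 min against 24 h and at 4 h against 24 h, and for each member the 3 most alike genes, of which 1 is not reported here. Gfap, sample numbers and the genes without overlap were named after their values were seen. Alternatives were other size factors, no filter, all 40 samples, a term for samples 1 to 18 against 19 to 40, fits of the compared groups alone, the sum of Hspa1a and Hspa1b, and leaving out each sample. Leaving out samples 10 and 11, or 27 and 36, was added after seeing the data.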

Additional observations from a re-analysis of the deposited data

Results flagged for a closer look

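A value was looked at again when it stood far from the others of its group by Dixon's test at the 95% level. Of 70 groups of 4 to 10 values, 6 had such a sample, where chance would give about 3.5. Hspb1 was high in sample 11, at 37.9 CPM, both among the 4 samples at 24 h after 5xCHI and among all 10 samples after 5xCHI. In the latter group, sample 11 was also low in Hsph1, at 165 CPM. Sample 38 was high in Hspb1 among the 4 samples at 24 h after 3xCHI, at 6.81 CPM. Over the times combined, sample 14 was high in Hspa1b after 1xCHI, at 22.5 CPM, and sample 12 was high in Hspa1a after 5xCHI, at 26.7 CPM.

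Sample 11 also had the highest Gfap and the lowest neuronal markers of the 39 samples, and the part of these in its Hspb1 and Hsph1 levels was not tested. None of the 10 genes had time differences that varied with the number of injuries past the threshold.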

How the results depend on the processing

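None of the 10 genes was called by the fit as reported, and the counts of called members were also 0 under DESeq2, other size factors, no filter, all 40 samples, the term for samples 1 to 18 against 19 to 40 and fits of the compared groups alone. The exception was each time against the group before that injury, where leaving out 1 sample at a time gave 0 to 2 called members. The 2, Hspb1 and Hspa5 at 30 min after 1xCHI, were called without sample 27 and also without samples 27 and 36, which gave 2 as well, and the cause was not tested. All genes called in that comparison were then 23.6% and 28.4%. The log2 fold changes then were 1.47 for Hspb1 and 0.47 for Hspa5 (adjusted p = 0.0348 and 0.0175 without samples 27 and 36). Of 8642 fold changes of members under the alternatives, 8638 were still not called, and 221 had the other sign, called in neither fit. The 90 permutation results under other prior counts or strata stayed on the same side of 0.05. No paired analysis was possible because each sample has its own number and the groups share none. Groups of 2 to 4 samples limit what a missing call can show. The split between Hspa1a and Hspa1b, and between Hspa8, Hsp90aa1 or Hspb1 and their copies, rests on how the counting shared reads.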

Other observations

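Sample 30, from 3xCHI at 4 h, was left out of every comparison except the alternative fit of all 40 samples. It lay within the range of the sham-injured samples for 8 of the 10 genes. Its Dnajb1 level of 44.3 CPM and its Hsph1 level of 291 CPM lay below that range. Its Dnajb1 level was also below the 47.8 and 49.0 CPM of the other samples of its group and below every 30 min sample. No gene of the 10 was above the sham-injured range in this sample.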
